A study of Mus musculus with 4 samples.

Results

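The 9 genes described here encode the enzymes that make lanosterol and turn it into cholesterol, in cells of the mouse brain. The cells had been enriched by sorting for CD31, which endothelial cells carry on their surface. The genes were chosen by symbol, in the order of the pathway, as Lss, Cyp51, Tm7sf2, Msmo1, Nsdhl, Hsd17b7, Ebp, Sc5d and Dhcr7. All 9 were found among the 32285 genes of the count matrices. C57BL6 mice had been fed chow containing PLX5622 at 1200 ppm, or a control diet without it, for 1 month. PLX5622 inhibits CSF1R, the receptor that microglia need to survive, and the study compared brain endothelial cells with and without that treatment. Meninges, cerebellum and olfactory bulbs had been removed. Each diet had 2 droplet libraries (10x Genomics 3' chemistry), and 3 mice supplied both libraries of a diet, so these may share animals. The p-values therefore rest on how far the 2 libraries of a diet lay apart, and that distance may be technical.

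Cholesterol is built from acetyl-CoA by enzymes of the cytosol and the endoplasmic reticulum. Squalene epoxide is closed into lanosterol, the first sterol, and the later enzymes strip methyl groups from lanosterol, move its ring double bond and reduce the remaining double bonds. The genes of the pathway are known targets of SREBP-2, a membrane-bound transcription factor that is cleaved and enters the nucleus when sterols in the endoplasmic reticulum run low. In the brain, cholesterol is made locally because lipoproteins of the blood do not cross the blood-brain barrier, and astrocytes are a main source of it in the adult.

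The promoters shown are those of the 5 genes that rose in endothelial-like cells in the comparisons that follow, and that of Ebp. Each line gives the 250 bases before a transcription start annotated by RefSeq on GRCm38.p6, read 5′ to 3′ in the direction of the gene. Capitals mark an SRE-like match, TCACNNCA on either strand, a loose form of the sterol regulatory element to which SREBPs bind. The windows are chr5:4104698-4104947 for Cyp51, chr8:64733579-64733828 for Msmo1, chr1:169969206-169969455 for Hsd17b7, chr9:42264301-42264550 for Sc5d and chrX:8193513-8193762 for Ebp, all on the minus strand. The window of Dhcr7, chr7:143829964-143830213, is on the plus strand and belongs to the third of its annotated starts. Ebp, which did not pass that test, is shown as a gene without a match. Nsdhl, which has a match and did not pass either, is not shown. Whether the matches have a part in the rises was not tested.
Cyp51: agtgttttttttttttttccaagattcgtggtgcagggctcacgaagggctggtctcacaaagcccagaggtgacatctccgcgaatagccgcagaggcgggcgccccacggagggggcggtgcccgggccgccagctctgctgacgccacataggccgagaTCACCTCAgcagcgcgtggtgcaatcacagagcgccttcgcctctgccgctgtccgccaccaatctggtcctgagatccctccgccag
Msmo1: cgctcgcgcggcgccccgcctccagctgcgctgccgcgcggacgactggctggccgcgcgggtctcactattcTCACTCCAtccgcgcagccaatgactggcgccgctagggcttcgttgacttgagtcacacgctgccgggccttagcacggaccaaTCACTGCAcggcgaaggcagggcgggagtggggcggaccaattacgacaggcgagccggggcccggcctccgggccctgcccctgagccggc
Hsd17b7: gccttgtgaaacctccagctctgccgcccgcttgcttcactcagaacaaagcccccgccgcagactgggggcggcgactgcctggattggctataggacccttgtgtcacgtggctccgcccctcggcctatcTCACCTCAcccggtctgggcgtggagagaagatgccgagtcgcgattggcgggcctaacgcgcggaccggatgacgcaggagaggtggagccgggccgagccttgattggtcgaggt
Sc5d: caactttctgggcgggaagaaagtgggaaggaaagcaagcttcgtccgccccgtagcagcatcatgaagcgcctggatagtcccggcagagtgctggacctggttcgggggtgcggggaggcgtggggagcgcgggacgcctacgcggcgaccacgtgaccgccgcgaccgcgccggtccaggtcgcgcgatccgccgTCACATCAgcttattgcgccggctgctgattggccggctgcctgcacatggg
Dhcr7: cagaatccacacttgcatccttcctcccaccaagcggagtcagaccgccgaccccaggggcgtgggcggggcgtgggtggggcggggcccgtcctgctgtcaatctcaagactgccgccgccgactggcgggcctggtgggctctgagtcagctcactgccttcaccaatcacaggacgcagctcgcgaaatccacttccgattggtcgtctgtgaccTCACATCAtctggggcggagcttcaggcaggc
Ebp: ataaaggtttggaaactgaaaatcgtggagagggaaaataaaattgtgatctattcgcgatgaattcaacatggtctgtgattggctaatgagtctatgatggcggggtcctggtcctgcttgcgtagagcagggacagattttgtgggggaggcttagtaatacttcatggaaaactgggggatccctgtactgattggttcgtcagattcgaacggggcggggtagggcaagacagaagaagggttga

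Motifs were searched on both strands in windows of 300 bases, from 250 before to 50 after each start. TCACNNCA was found for 6 of the 9 genes, Cyp51, Msmo1, Nsdhl, Hsd17b7, Sc5d and Dhcr7, and in 13.8% of all 32851 RefSeq windows (15.7% of 27025 genes). In the gene's own direction it began 88 bases before the start of Cyp51, 177 and 92 before that of Msmo1, 117 before that of Hsd17b7 and 52 before that of Sc5d. Nsdhl carried it on the opposite strand, across the start. Dhcr7 has 3 annotated starts, and the match lay 130 bases before the second and 32 before the third of them, with none at the first. No window of Lss, Tm7sf2 or Ebp held these letters. The narrower TCACNCCA, which is contained in the first motif, was found for Msmo1 alone among the 9 genes and in 4.36% of all windows (4.97% of genes). CCAAT, the letters bound by NF-Y, and GGGCGG, a GC box, were present for all 9 genes. They were found in 37.4% and 35.7% of all windows (41.1% and 38.2% of genes). CACGTG, an E-box, was present for Hsd17b7, Sc5d and Dhcr7 and in 7.15% of all windows (8.09% of genes). In the 6 genes with the SRE-like match, the nearest CCAAT lay 4 to 59 bases from it, counted between their leftmost bases, except at the second start of Dhcr7, whose window held none. The match of Msmo1 nearest to its start shares its first base with the end of a CCAAT. Dhcr7, with 3 windows, had more chances of a match than a gene with 1.

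**Figure D1:**
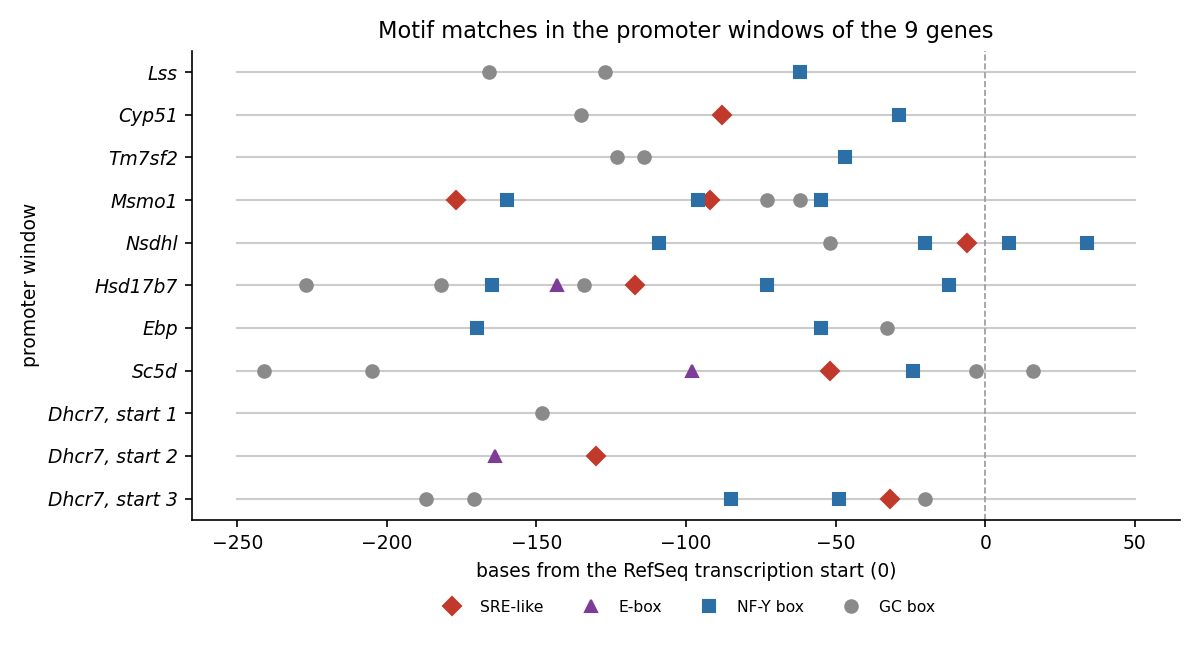
Positions of motif matches in the 11 promoter windows of the 9 genes (rows) against the distance in bases from the annotated RefSeq start (horizontal axis, dashed line at the start). Diamonds are SRE-like matches, triangles E-boxes, squares NF-Y (CCAAT) boxes and circles GC boxes, each drawn at its leftmost base, and the rows of Lss, Tm7sf2 and Ebp have no diamond.

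The libraries held 19044018 and 26949278 UMIs (molecules counted per gene and barcode) on PLX5622 and 11186648 and 38600208 on the control diet. Barcodes were kept as cells from 1000 UMIs and 500 genes upward, with no more than 10% of UMIs mitochondrial, and numbered 3989 and 3670 on PLX5622 and 1696 and 5509 on the control diet. Endothelial-like cells made up 3609 and 3260 of them on PLX5622 and 1523 and 4972 on the control diet and held their 7 defining markers at 21827 to 22236 CPM in the 4 libraries. Levels are given as CPM, the UMIs of a gene in the summed cells of a class and library scaled to a common total. Any pair of libraries shared 1 to 6 barcodes among kept cells. Over all barcodes, C1qa, a microglial marker, was at 0 in both PLX5622 libraries and at 21.5 and 2.57 CPM on the control diet, and C1qb and C1qc were also at 0 in both PLX5622 libraries. Cx3cr1, another microglial marker, was at 0.0525 and 0.0742 CPM on PLX5622 and 22.6 and 1.503 CPM on the control diet. Control library 1 was the highest of the 4 by far.

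In endothelial-like cells, 5 of the 9 genes rose on PLX5622 and none fell: Cyp51, Msmo1, Hsd17b7, Sc5d and Dhcr7. Across all 12800 genes tested in the same fit, 0.766% rose and 0.297% fell (edgeR quasi-likelihood, Benjamini-Hochberg adjusted p under 0.05). The median log2 fold change was 0.70 over the 9 genes and 0.0055 over all genes tested. Summed over the 9 genes, the level was 242 and 253 CPM on PLX5622, against 139 and 146 CPM on the control diet. That is a mean of 247 ± 8.23 CPM on PLX5622 and 142 ± 5.48 CPM on the control diet (SD, n = 2 libraries each). The 2 libraries of a diet lay close together, and the diets did not overlap.

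**Figure D2:**
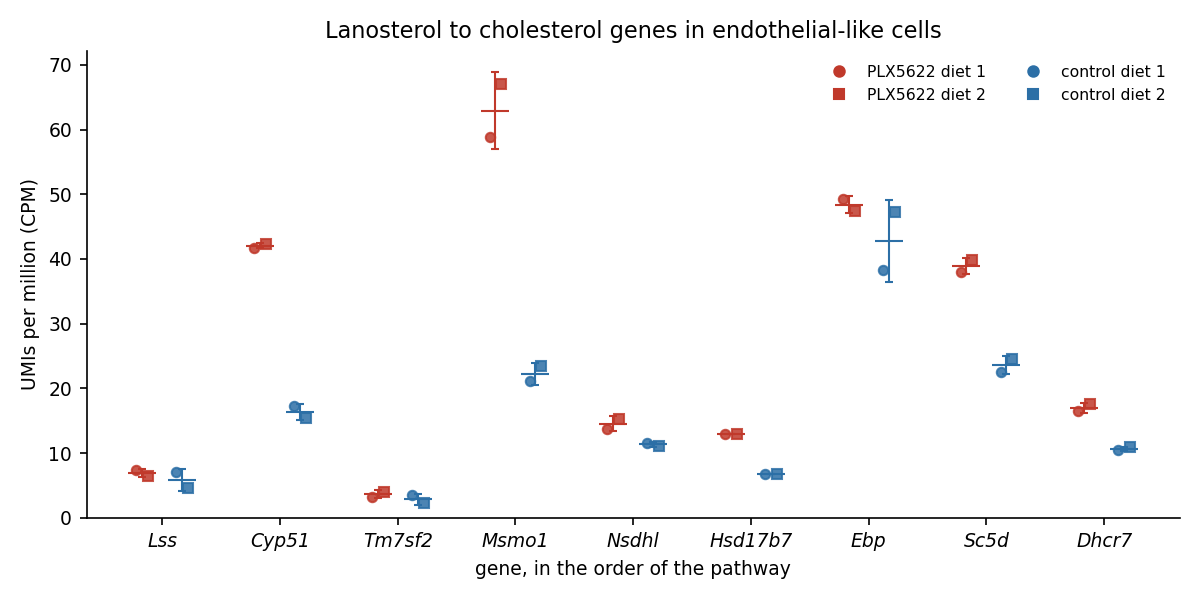
Level of each of the 9 genes in endothelial-like cells (CPM, vertical axis) for 2 libraries on PLX5622 diet (red, left of each pair) and 2 on control diet (blue), with the mean and SD as a bar. Cyp51 and Msmo1 stand far above their controls on PLX5622, at 41.8 and 42.3 and at 58.8 and 67.1 CPM, while the libraries of Lss and Tm7sf2 overlap between the diets.

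Lss, lanosterol synthase, closes squalene epoxide into lanosterol (ENSMUSG00000033105, chr10:76531588-76557138, plus strand, GENCODE M21 on GRCm38, as for all genes below). It had 7.34 and 6.47 CPM on PLX5622 and 7.03 and 4.63 CPM on the control diet. The diets overlapped, since control library 1 lay between the PLX5622 libraries. The log2 fold change was 0.37 ± 0.20 (SE, adjusted p = 0.543). Lss overlaps an antisense gene, 4930483K19Rik, on the other strand.

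Cyp51, lanosterol demethylase, is a cytochrome P450 that removes the first of the 3 methyl groups lost from lanosterol (ENSMUSG00000001467, chr5:4081145-4104746, minus strand). Its level was 41.8 and 42.3 CPM on PLX5622, against 17.3 and 15.4 CPM on the control diet. Both PLX5622 libraries were far above both controls, with means of 42.0 ± 0.41 CPM on PLX5622 and 16.4 ± 1.29 CPM on the control diet (SD, n = 2 each). That is a 2.68-fold rise (log2 fold change 1.42 ± 0.10, adjusted p = 5.2e-07). Its gene overlaps Akap9, which lies on the opposite strand.

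Tm7sf2 encodes a sterol reductase that acts on the product of CYP51, a step shared with the lamin B receptor gene Lbr (ENSMUSG00000024799, chr19:6062821-6068373, minus strand). It was counted at 3.18 and 4.07 CPM on PLX5622 and at 3.46 and 2.24 CPM on the control diet, from 49 and 88 UMIs and from 30 and 72 UMIs. The diets overlapped, and the log2 fold change of 0.52 ± 0.26 did not pass (adjusted p = 0.511). Lbr, the other gene for this step, had 119 and 105 CPM on PLX5622 and 115 and 97.3 CPM on the control diet, again overlapping (0.13 ± 0.10, adjusted p = 0.718). Neither gene for this reductase step passed the test. Tm7sf2 overlaps Vps51 on the same strand, so reads of these neighbours may not have been told apart.

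Msmo1, Nsdhl and Hsd17b7 act in turn to remove the other 2 methyl groups. Msmo1, the methylsterol oxidase that starts each round (ENSMUSG00000031604, chr8:64718139-64733792, minus strand), had 58.8 and 67.1 CPM on PLX5622, against 21.1 and 23.4 CPM on the control diet. The diets were well apart, and the 2.87-fold rise was the largest of the 9 genes (log2 fold change 1.52 ± 0.11, adjusted p = 5.0e-07). Nsdhl, the dehydrogenase and decarboxylase of the round (ENSMUSG00000031349, chrX:72918557-72958514, plus strand), had 13.7 and 15.3 CPM on PLX5622, against 11.6 and 11.1 CPM on the control diet. Both PLX5622 libraries were above both controls, but the log2 fold change of 0.40 ± 0.14 did not pass over all genes (adjusted p = 0.231). Hsd17b7, the keto-reductase that ends the round (ENSMUSG00000026675, chr1:169949535-169969241, minus strand), was at 12.99 CPM in each PLX5622 library and 6.80 and 6.81 CPM on the control diet. The libraries of each diet were almost equal, and the gene rose 1.95-fold (log2 fold change 0.96 ± 0.15, adjusted p = 0.0024). That call was lost with limma at equal weight to the zones (0.63, adjusted p = 0.158). Erg28, a scaffold protein that holds the demethylation enzymes together in yeast, rose as well, with 28.0 and 28.6 CPM on PLX5622 and 17.4 and 16.3 CPM on the control diet (0.80 ± 0.11, adjusted p = 8.4e-04).

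Ebp, the sterol isomerase that moves the ring double bond (ENSMUSG00000031168, chrX:8185329-8193512, minus strand), had 49.3 and 47.5 CPM on PLX5622 and 38.2 and 47.2 CPM on the control diet. Control library 2 came within 1 CPM of PLX5622 library 2, and the log2 fold change was the smallest of the 9 genes at 0.19 ± 0.11 (adjusted p = 0.589). Sc5d, the desaturase that follows (ENSMUSG00000032018, chr9:42251595-42264256, minus strand), had 38.1 and 39.8 CPM on PLX5622, against 22.6 and 24.6 CPM on the control diet. The diets were well apart, and Sc5d rose 1.68-fold (0.75 ± 0.10, adjusted p = 8.4e-04). Dhcr7, the reductase that makes cholesterol from its precursor 7-dehydrocholesterol (ENSMUSG00000058454, chr7:143823145-143848410, plus strand), had 16.4 and 17.6 CPM on PLX5622, against 10.5 and 10.9 CPM on the control diet. It rose 1.62-fold (0.70 ± 0.13, adjusted p = 0.013), a call that neither DESeq2 (adjusted p = 0.057) nor limma at equal weight to the zones (0.136) made.

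Markers of other cell types were read in the same endothelial sums. The 7 astrocyte markers summed to 49.0 and 57.1 CPM on PLX5622 and 57.8 and 43.5 CPM on the control diet, and the 8 pericyte markers to 336 and 290 CPM on PLX5622 and 238 and 242 CPM on the control diet. The 5 erythroid markers stood at 125 and 85.1 CPM on PLX5622 and 22.1 and 78.4 CPM on the control diet, and their part in the rises was not tested. The 5 choroid plexus markers were at 0.455 and 0.647 CPM on PLX5622 and 2.07 and 81.1 CPM on the control diet, high in control library 2 alone. Endothelial-like cells with at most 1 UMI of the markers of pericytes, smooth muscle, astrocytes and oligodendrocytes held Cyp51 at 42.6 and 43.7 CPM on PLX5622, against 17.1 and 15.2 CPM on the control diet. In these cells the rise of Dhcr7 no longer passed (log2 fold change 0.57, adjusted p = 0.067), and the other 4 genes still did.

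Genes that act before lanosterol were read in the same fit, in which 0.766% of all 12800 genes rose and 0.297% fell. Of 9 such genes, 7 rose and none fell: Acat2, Hmgcs1, Mvd, Idi1, Fdps, Fdft1 and Sqle, while Mvk and Pmvk did not pass (adjusted p = 0.388 and 0.539). The median log2 fold change of these 9 genes was 1.07. Sqle, the squalene epoxidase that supplies lanosterol synthase, had 18.6 and 21.1 CPM on PLX5622, against 5.18 and 5.13 CPM on the control diet, a 3.94-fold rise (1.98 ± 0.15, adjusted p = 7.3e-07). Lss, the next gene in the route, was thus not called between Sqle and Cyp51, which both rose; whether Lss differed from its neighbours was not tested. Of 6 companion genes of the late steps, Erg28 rose and none fell; the other 5 were not called. Cyb5b and Por, which carry electrons to several of these enzymes, had log2 fold changes of 0.30 ± 0.09 (adjusted p = 0.177) and 0.19 ± 0.11 (adjusted p = 0.586). Cyb5r3, the reductase that passes electrons to cytochrome b5, stood the other way, with 130 and 133 CPM on PLX5622 and 147 and 153 CPM on the control diet, and did not pass (-0.15 ± 0.09, adjusted p = 0.648). Both of its PLX5622 libraries were below both controls.

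**Figure D3:**
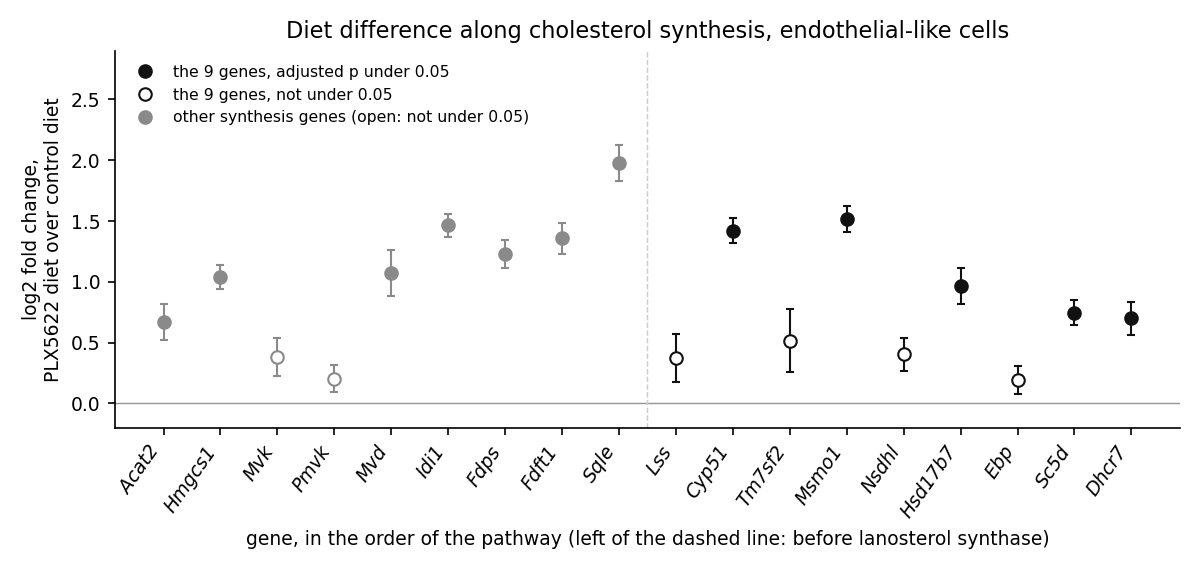
Log2 fold change of PLX5622 diet over control diet in endothelial-like cells (vertical axis, bars are SE, 2 libraries per diet) for the genes of cholesterol synthesis in pathway order (horizontal axis). Black points are the 9 genes and grey points the others, filled where the adjusted p is under 0.05; values run from 0.19 for Ebp to 1.98 for Sqle, and the filled black points are Cyp51, Msmo1, Hsd17b7, Sc5d and Dhcr7.

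Genes that sense or move sterols were also read in that fit, where 0.766% of all 12800 genes rose and 0.297% fell. Of 9, 4 rose (Srebf2, Insig1, Stard4 and Tmem97) and none fell, with a median log2 fold change of 0.36. Insig1, which retains the SREBP complex in the endoplasmic reticulum, had 70.6 and 67.8 CPM on PLX5622 and 28.5 and 23.5 CPM on the control diet (log2 fold change 1.48 ± 0.10, adjusted p = 2.5e-07). Srebf2, which encodes SREBP-2, was at 102 and 96.9 CPM on PLX5622, against 63.0 and 61.7 CPM on the control diet (0.72 ± 0.09, adjusted p = 4.5e-04). Srebf1, Scap, which escorts SREBPs, Insig2 and Mbtps2, which cleaves SREBPs, had log2 fold changes of 0.36, -0.09, 0.05 and -0.05 and did not pass (adjusted p of 0.174, 0.857, 0.910 and 0.944).

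Endothelial cells differ along the vascular tree, and the 9 genes were read in arterial-like, capillary-like and venous-like cells, which were named from markers that did not include them. Some endothelial-like clusters got no zone name, so the 3 zones do not cover all endothelial-like cells. Cyp51 and Msmo1 rose in all 3 zones. In capillary-like cells (1910 and 1708 on PLX5622, 687 and 2002 on the control diet), 4 of the 9 genes rose, Cyp51, Msmo1, Hsd17b7 and Sc5d, against 0.654% of all 11630 genes tested there. In venous-like cells (252 and 295 on PLX5622, 169 and 590 on the control diet), 3 of the 8 genes tested rose, Cyp51, Msmo1 and Sc5d, against 1.18% of 10030 genes. In arterial-like cells (281 and 290 on PLX5622, 128 and 528 on the control diet), Cyp51 and Msmo1 rose, 2 of 8 tested, against 0.232% of 9489 genes. Tm7sf2 did not pass the low-count filter in arterial-like or venous-like cells, and no member fell in any zone. Zone markers also differed between the diets within zones. In venous-like cells the 12 venous markers summed to 5519 and 5848 CPM on PLX5622 and 3925 and 4227 CPM on the control diet, and the 10 capillary markers to 7872 and 7917 CPM on PLX5622 and 9733 and 9591 CPM on the control diet. Neither sum overlapped between the diets. The capillary markers were also lower on PLX5622 in capillary-like cells, at 9262 and 8922 CPM on PLX5622 and 10454 and 9831 CPM on the control diet, and in arterial-like cells, at 3859 and 4077 CPM on PLX5622 and 4739 and 4796 CPM on the control diet. Their part in the rises was not tested.

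Cyp51 had 48.2 and 56.0 CPM on PLX5622, against 21.4 and 15.2 CPM on the control diet, in arterial-like cells (log2 fold change 1.66 ± 0.24, adjusted p = 1.3e-05). In capillary-like cells its level was 43.1 and 38.9 CPM on PLX5622 and 20.2 and 17.8 CPM on the control diet (1.16 ± 0.14, adjusted p = 6.1e-06). In venous-like cells it was 50.8 and 37.9 CPM on PLX5622 and 11.03 and 14.2 CPM on the control diet (1.72 ± 0.21, adjusted p = 7.3e-07). The diets did not overlap in any of the 3 zones. For Msmo1 the levels were 65.3 and 72.9 CPM on PLX5622 and 17.6 and 27.6 CPM on the control diet in arterial-like cells (1.47 ± 0.21, adjusted p = 1.3e-05). Capillary-like cells held 56.6 and 68.4 CPM on PLX5622 and 19.5 and 27.2 CPM on the control diet (1.36 ± 0.15, adjusted p = 1.3e-06), and venous-like cells 71.5 and 68.3 CPM on PLX5622 and 28.5 and 18.2 CPM on the control diet (1.75 ± 0.18, adjusted p = 1.2e-08). Again no control library reached a PLX5622 library. With DESeq2 neither gene was called in arterial-like cells (adjusted p = 0.336 for Cyp51 and 0.169 for Msmo1).

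Sc5d was at 38.1 and 40.7 CPM on PLX5622 and 25.4 and 22.5 CPM on the control diet in capillary-like cells (0.77 ± 0.14, adjusted p = 0.0013). Venous-like cells held 46.6 and 33.99 CPM on PLX5622 and 18.8 and 25.7 CPM on the control diet (0.75 ± 0.20, adjusted p = 0.037). The venous call of Sc5d was lost without PLX5622 library 1 (adjusted p = 0.486) or control library 1 (0.093) and with library totals in place of normalization factors (0.0561), and DESeq2 called it neither there (0.854) nor in capillary-like cells (0.089). In arterial-like cells Sc5d had 31.9 and 43.9 CPM on PLX5622 and 17.6 and 21.9 CPM on the control diet, also without overlap, and did not pass (0.90 ± 0.24, adjusted p = 0.102). Hsd17b7 was at 12.8 and 12.3 CPM on PLX5622 and 6.18 and 6.73 CPM on the control diet in capillary-like cells (0.95 ± 0.22, adjusted p = 0.026). That call was lost without PLX5622 library 1, PLX5622 library 2 or control library 2 (adjusted p of 0.119, 0.124 and 0.0705) and with DESeq2 (0.660). In arterial-like cells the diets overlapped for Hsd17b7, with 10.1 and 14.01 CPM on PLX5622 and 12.6 and 7.31 CPM on the control diet (0.54 ± 0.39, adjusted p = 0.956).

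Dhcr7 was not called in any single zone. Its arterial-like levels were 10.9 and 23.8 CPM on PLX5622 and 5.03 and 8.12 CPM on the control diet, from only 14 and 51 UMIs and 4 and 30 UMIs (1.30 ± 0.37, adjusted p = 0.146). Capillary-like cells held 17.4 and 18.5 CPM on PLX5622 and 15.6 and 10.6 CPM on the control diet (0.58 ± 0.19, adjusted p = 0.210), and venous-like cells 12.95 and 12.5 CPM on PLX5622 and 11.03 and 10.5 CPM on the control diet (0.28 ± 0.29, adjusted p = 0.847). Control library 1 was the nearer of the controls in capillary-like cells, and without it Dhcr7 passed there (0.75, adjusted p = 0.018). Nsdhl had log2 fold changes of 0.83 ± 0.34, 0.52 ± 0.20 and 0.32 ± 0.27 in arterial-like, capillary-like and venous-like cells, none of which passed (adjusted p of 0.597, 0.384 and 0.790). Ebp stayed between 0.06 and 0.18 on that scale in the 3 zones. Lss ran from -0.01 ± 0.41 in venous-like cells to 1.25 ± 0.58 in arterial-like cells, where it rested on 9 and 16 UMIs on PLX5622 and 5 and 8 on the control diet.

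**Figure D4:**
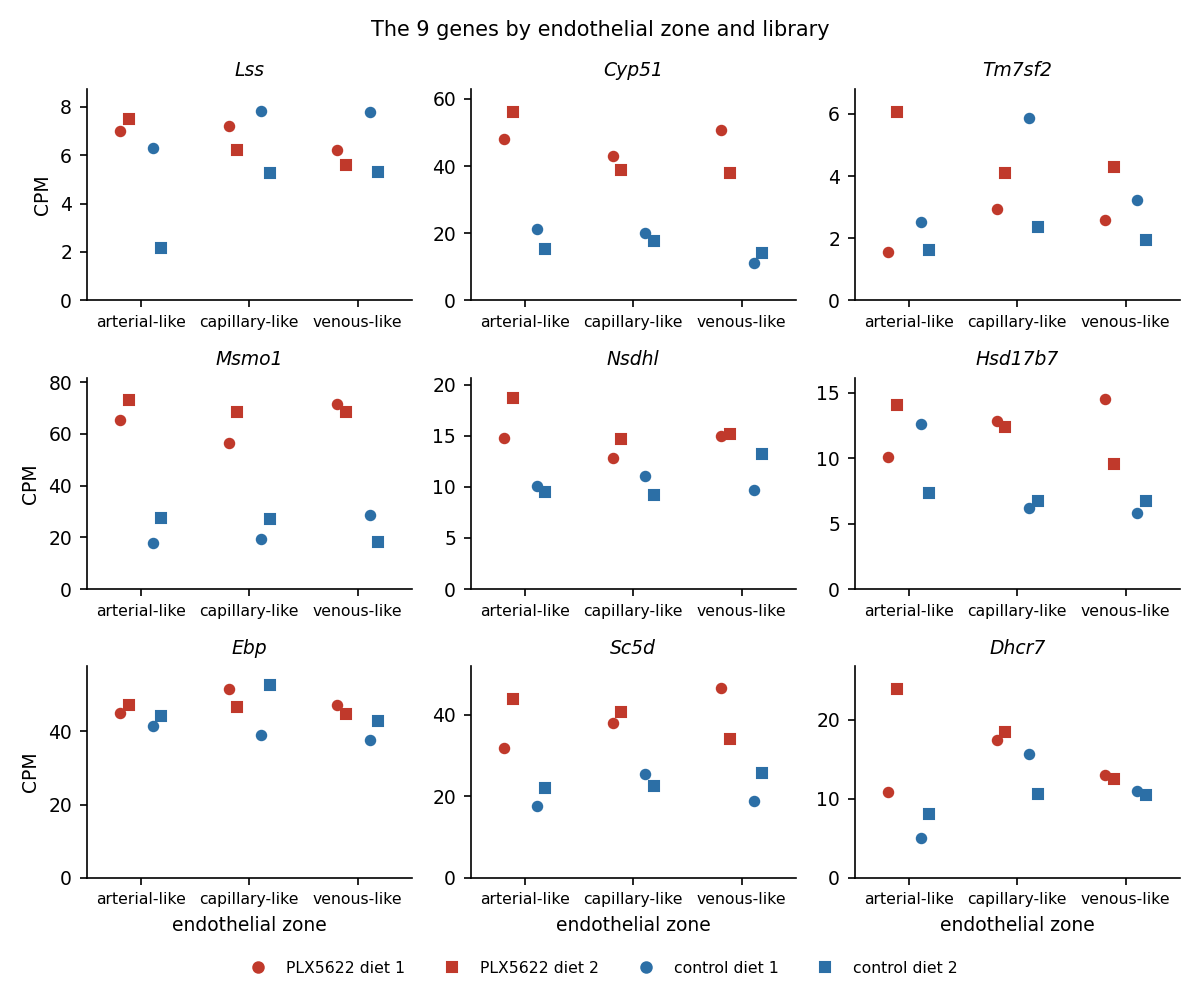
Level of each of the 9 genes (CPM, vertical axes from 0, scaled per gene) in arterial-like, capillary-like and venous-like cells, with PLX5622 libraries in red on the left and control libraries in blue on the right of each zone. The red points of Cyp51 and Msmo1 stay above the blue ones in each zone, with Cyp51 at 37.9 to 56.0 CPM on PLX5622 and 11.03 to 21.4 CPM on the control diet.

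Whether the diet difference itself differed between zones was tested over the 12 sums of 4 libraries and 3 zones, with the library as a block. None of the 9 genes passed for arterial-like minus capillary-like or for venous-like minus capillary-like cells with edgeR, and DESeq2 was not run on this model. After adjustment, 0.0545% of all 11000 genes were higher and 0.136% lower for the first difference (0.191% in either direction). For the second, 0.227% were higher and 0.4% lower (0.627% in either direction). At an unadjusted p under 0.05 there were 1 and 2 of the 9 genes. The share of all genes at that unadjusted threshold was not counted, so these counts have no like share beside them. The log2 fold change of Cyp51 exceeded that in capillary-like cells by 0.53 ± 0.25 in arterial-like cells (unadjusted p = 0.034, adjusted p = 0.847) and by 0.54 ± 0.23 in venous-like cells (unadjusted p = 0.020, adjusted p = 0.488). That of Msmo1 exceeded it by 0.44 ± 0.20 in venous-like cells (unadjusted p = 0.032, adjusted p = 0.565), and that difference ran from -0.42 to 0.72 when 1 library at a time was left out. Over the 9 genes, the arterial-like minus capillary-like difference in log2 fold change ran from -0.37 for Hsd17b7 to 1.06 for Lss, and the venous-like one from -0.34 for Dhcr7 to 0.54 for Cyp51.

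Averaged over the diets, none of the 9 genes passed the test for a difference in level between zones, although of the 11000 genes tested 17.3% were higher and 14.4% lower in arterial-like than in capillary-like cells, and 9.62% higher and 9.24% lower in venous-like than in capillary-like cells (edgeR, adjusted p under 0.05). At an unadjusted p under 0.05 there were 0 and 2 of the 9 genes, and the share of all genes at that threshold was not counted. Those 2 were Ebp, with a log2 difference of -0.20 ± 0.09 for venous-like minus capillary-like cells (unadjusted p = 0.024, adjusted p = 0.0995), and Dhcr7, with a difference of -0.37 ± 0.16 (unadjusted p = 0.024, adjusted p = 0.101). The arterial-like minus capillary-like differences ran from -0.41 ± 0.29 for Lss to 0.17 ± 0.21 for Hsd17b7. The venous-like minus capillary-like ones reached 0.20 ± 0.16 for Nsdhl at the upper end. Without PLX5622 library 2, Dhcr7 was lower in arterial-like than in capillary-like cells (-0.68, adjusted p = 0.038).

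The summed level was also read cluster by cluster. In 9 endothelial clusters, found without sterol or diet-response genes, the 9 genes together had 216 to 290 CPM on PLX5622 and 93.1 to 164 CPM on the control diet. These ranges, over clusters and libraries, did not meet. Single genes did not all follow the sum, and Ebp overlapped between the diets in several clusters. In the capillary-like cluster with Jun and Egr1 among its top genes, Lss, Tm7sf2 and Nsdhl were lower on PLX5622. They rested on 1 to 13 UMIs a library. Cyp51, Msmo1, Hsd17b7 and Ebp were higher there, and Sc5d and Dhcr7 overlapped. Lss was also lower in the cluster led by Bloc1s1, from 1 or 2 UMIs a library. The share of all genes without overlap was not counted. The capillary-like cluster led by Angpt2, Ccn2, Meox1 and Adm took 14.4% and 22.4% of endothelial-like cells on PLX5622 and 7.81% and 5.47% on the control diet. Inside that cluster the sum was 236 and 254 CPM on PLX5622, against 143 and 146 CPM on the control diet. Outside it, the sum over all other endothelial-like cells was 243 and 253 CPM on PLX5622, against 138 and 146 CPM on the control diet. This split was chosen after the data had been seen. Venous-like cells took 6.98% and 9.05% of endothelial-like cells on PLX5622 and 11.1% and 11.9% on the control diet. Capillary-like cells took 52.9% and 52.4% on PLX5622 and 45.1% and 40.3% on the control diet. The shares of arterial-like cells overlapped, at 7.79% and 8.90% on PLX5622 and 8.40% and 10.6% on the control diet. The remaining clusters had no zone name. One, with arterial and capillary markers and led by Efnb2, took 11.5% and 14.1% on PLX5622 and 23.3% and 19.5% on the control diet. That led by Tcim took 13.5% and 11.4% on PLX5622 and 7.88% and 14.7% on the control diet. That led by Bloc1s1 took 7.34% and 4.20% on PLX5622 and 4.20% and 3.04% on the control diet. The part of such shares in the rises was not tested.

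**Figure D5:**
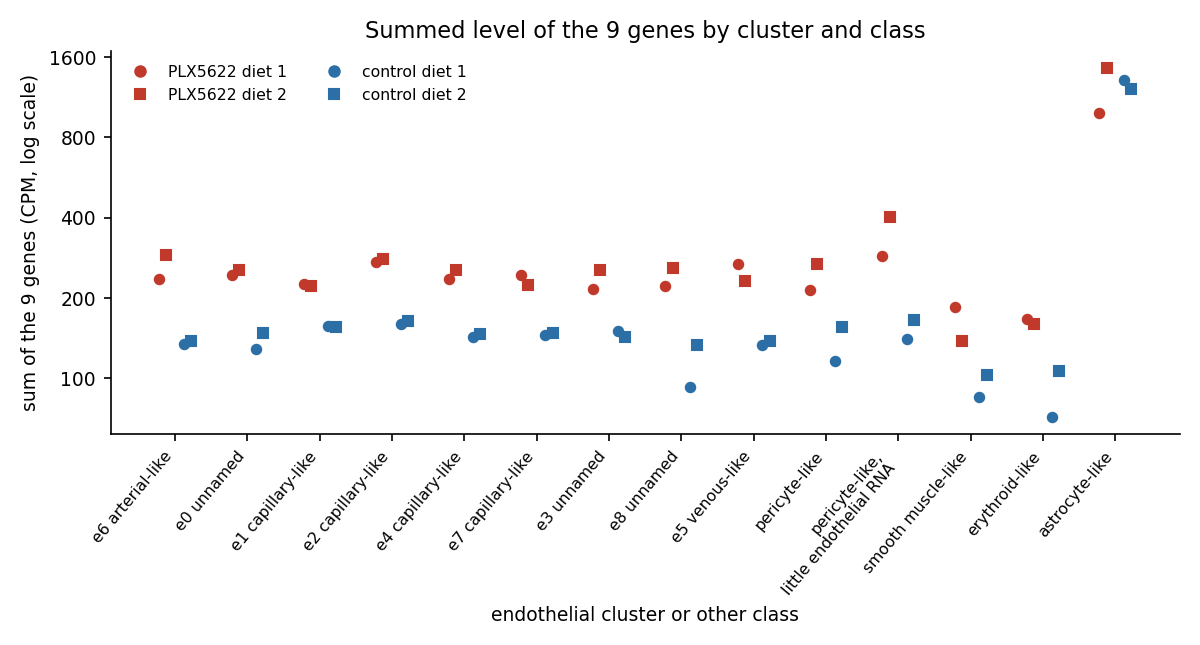
Summed level of the 9 genes (CPM, log axis) in each endothelial cluster and in the other cell classes (horizontal axis), with PLX5622 libraries in red on the left and control libraries in blue on the right. All endothelial clusters lie at 216 to 290 CPM on PLX5622 and 93.1 to 164 CPM on the control diet, and astrocyte-like cells lie far higher, at 989 to 1455 CPM.

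Mural cells, the pericytes of capillaries and the smooth muscle of larger vessels, were few in a CD31 sort. Smooth muscle-like cells numbered 61 and 60 on PLX5622 and 36 and 70 on the control diet. The 9 genes together had 185 and 138 CPM there on PLX5622, against 85.3 and 102 CPM on the control diet, from 77 and 79 UMIs and 29 and 85 UMIs. The 5 erythroid markers in these cells were at 35.9 and 52.5 CPM on PLX5622 and 8.83 and 6211 CPM on the control diet, and the 7 endothelial markers at 1380 and 776 CPM on PLX5622 and 609 and 2745 CPM on the control diet. Control library 2 thus stood apart, and the part of this in the levels was not tested. Only Cyp51, Msmo1 and Ebp passed the low-count filter, and none passed the test, as no gene rose and none fell among 6389 tested (0% in either direction, edgeR). Cyp51 had 55.1 and 21.01 CPM on PLX5622, against 5.88 and 13.3 CPM on the control diet, from 23 and 12 UMIs and 2 and 11 UMIs. The diets did not overlap, but PLX5622 library 1 lay far above library 2, and the log2 fold change of 1.75 ± 0.54 had an unadjusted p of 0.0036 and an adjusted p of 0.855. Msmo1 was at 33.5 and 24.5 CPM on PLX5622 and 17.7 and 22.9 CPM on the control diet (0.46 ± 0.44, adjusted p = 0.997). Ebp overlapped, at 31.2 and 19.3 CPM on PLX5622 and 11.8 and 30.1 CPM on the control diet (0.07 ± 0.47). At an unadjusted p under 0.05 there was 1 of the 3 genes, and DESeq2 called none. The share of all genes at that unadjusted threshold was not counted.

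Pericyte-like cells numbered 72 and 62 on PLX5622 and 25 and 81 on the control diet. The class carried endothelial RNA, with 12885 to 15693 CPM of the 7 endothelial markers. Its 5 erythroid markers were at 182 and 19183 CPM on PLX5622 and 5.07 and 78.1 CPM on the control diet, so PLX5622 library 2 stood apart, and the part of this in the levels was not tested. In this class the 9 genes summed to 215 and 269 CPM on PLX5622, against 117 and 156 CPM on the control diet. Msmo1, Ebp and Sc5d passed the filter and none passed the test, while 0% of 5981 genes rose and 0.0167% fell (edgeR). Msmo1 had 69.3 and 74.8 CPM on PLX5622 and 15.2 and 46.1 CPM on the control diet (1.00 ± 0.39, unadjusted p = 0.010, adjusted p = 0.692). Ebp had 43.8 and 59.8 CPM on PLX5622 and 25.3 and 31.9 CPM on the control diet (0.86 ± 0.43, adjusted p = 0.872). Neither Msmo1 nor Ebp overlapped between the diets. Sc5d did, with 25.5 and 49.2 CPM on PLX5622 and 0 and 30.2 CPM on the control diet (0.91 ± 0.52, adjusted p = 0.919). At an unadjusted p under 0.05 there were 2 of the 3 genes, and DESeq2 called none. The share of all genes at that unadjusted threshold was not counted.

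A pericyte-like subcluster of 36 and 20 cells on PLX5622 and 8 and 30 cells on the control diet held little endothelial RNA, at 155 to 626 CPM of the endothelial markers. It was singled out after the data had been seen and was too small for a test. There the 9 genes summed to 288 and 404 CPM on PLX5622, against 140 and 166 CPM on the control diet, from 23 and 26 UMIs and 4 and 18 UMIs. Msmo1 took 7 and 9 of those UMIs on PLX5622 and 1 and 8 on the control diet. Cyp51, with 2 and 1 UMIs on PLX5622 and 2 and 1 on the control diet, could not be compared at this depth.

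Astrocyte-like cells, 9 and 15 on PLX5622 and 13 and 36 on the control diet, were too few for a test. Their summed level of the 9 genes was 989 and 1455 CPM on PLX5622 and 1312 and 1218 CPM on the control diet, which overlapped. Msmo1 was at 645 and 732 CPM on PLX5622 and 683 and 721 CPM on the control diet in them. Pooled over the 4 libraries, astrocyte-like Msmo1 came to 279 UMIs, or 714 CPM (exact Poisson interval at 95%, 633 to 803 CPM, counting error only). Cyp51 came to 136 CPM (102 to 177) and Sc5d to 131 CPM (97.2 to 172) in the same cells. Ebp came to only 9 UMIs, 23.0 CPM (10.5 to 43.7). Erythroid-like droplets held 12642 to 15740 CPM of the endothelial markers, and their sum of the 9 genes was 167 and 160 CPM on PLX5622 and 71.6 and 107 CPM on the control diet. In barcodes with fewer than 100 UMIs, which mostly hold free RNA, Cyp51 was at 40.5 and 37.7 CPM on PLX5622 and at 16.1 and 16.2 CPM on the control diet, close to its endothelial levels in each library. Msmo1 was at 63.6 and 67.4 CPM on PLX5622 and 27.5 and 40.1 CPM on the control diet in those barcodes, above its endothelial 23.4 CPM in control library 2. Tm7sf2 was at 7.43 and 3.43 CPM on PLX5622 and 9.47 and 8.34 CPM on the control diet there, from 6 to 16 UMIs a library, and was above its endothelial level in all but PLX5622 library 2. Hsd17b7 was at 12.4 and 14.8 CPM on PLX5622 and 1.89 and 6.77 CPM on the control diet, with 2 UMIs in control library 1, where its endothelial level was 6.80 CPM.

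Per cell the 9 genes were sparse. At least 1 UMI of any of them was found in 55.8% and 71.3% of endothelial-like cells on PLX5622 and in 49.3% and 55.5% on the control diet. Median depths were 3803 and 5884 UMIs on PLX5622 and 5210 and 5540.5 on the control diet, so cells were also compared after thinning each to 1000 UMIs, which left out none. The share with any of the 9 was then 20.2% (exact binomial interval at 95%, 18.9 to 21.5) and 22.5% (21.1 to 24.0) on PLX5622. On the control diet it was 12.9% (11.3 to 14.7) and 13.8% (12.9 to 14.8). For Msmo1 the thinned share was 5.60% and 6.29% on PLX5622 and 1.77% and 2.37% on the control diet, and for Cyp51 3.66% and 4.57% on PLX5622 and 1.71% in each control library. Ebp did not separate, at 4.66% and 4.72% on PLX5622 and 4.14% and 4.79% on the control diet. Unthinned, Msmo1 was seen in 19.95% and 30% of cells on PLX5622 and 10.2% and 12.6% on the control diet. In erythroid-like droplets, which should lack the gene but carry endothelial RNA and had medians of 7912.5 and 13442 UMIs on PLX5622 and 7612.5 and 11364 on the control diet, its thinned share was 2.99% and 3.28% on PLX5622 and 0% and 0.676% on the control diet.

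The genes most like the 9 in their pattern over the 12 zone sums were, by Pearson correlation of log2(CPM + 1) with the mean standardized level of the 9, Hmgcs1 (0.92), Dbi (0.92), Rtp4 (0.91), Srebf2 (0.90), Idi1 (0.88), Rsrp1 (0.88), Hspe1 (0.88) and Rbmxl1 (0.87), out of 6219 candidates with a mean of at least 20 CPM. The sums share libraries and differ mainly by diet, so these are a description. Within the 6 sums of PLX5622 diet alone, the correlation was 0.84 for Hmgcs1, 0.54 for Dbi and 0.65 for Rtp4. Within the 6 of control diet alone it was -0.42, 0.66 and 0.04 for the same genes. Among the 9 themselves, each gene's correlation with the mean of the other 8 over the same sums was 0.91 for Sc5d, 0.90 for Cyp51, 0.83 for Nsdhl, 0.82 for Msmo1, 0.73 for Dhcr7 and 0.67 for Hsd17b7. It was 0.39 for Tm7sf2, 0.39 for Ebp and 0.36 for Lss. Tm7sf2 and Lss also had the fewest endothelial UMIs of the 9, at 49 and 88 on PLX5622 and 30 and 72 on the control diet for Tm7sf2.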

How the data were processed

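Droplet libraries of CD31-sorted brain cells were made with 10x Genomics 3' v3.1 chemistry, per the labels' protocols. The deposited values are whole-number UMI counts per gene and barcode, which the authors produced with a Cell Ranger pipeline, per the file headers. The submitters' processing notes name Cell Ranger 6.0.1, Seurat 4.0, mm10 and mm39 without giving their roles. Gene positions come from GENCODE M21, which holds 32158 of the 32285 gene IDs. Promoter windows are RefSeq's on GRCm38.p6. All count columns of the 4 libraries were used.

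Cells were kept with the limits given above, clustered on 2000 variable genes (Leiden, resolution 0.6, leidenalg 0.10.2, igraph 0.11.9), and named from markers. Sterol genes and genes that respond to the diet were left out of the clustering. A class name other than endothelial-like needed at least 3 markers raised 4-fold and found in 25% of cells. Clusters short of 3 markers of any other class were named endothelial-like if most endothelial markers were widely found in their cells, with no fold limit. A zone name needed at least 3 markers raised 1.2-fold and found in 10% of cells, with the next zone short of 3 markers or well behind. These naming limits were set after the clusters had been seen. No doublet caller was run. Counts were summed per library and class, with at least 20 cells per library for a test. Sums were tested with edgeR 4.0.16 (quasi-likelihood, TMM factors, low-count filter), with Benjamini-Hochberg adjustment over all genes. DESeq2 1.42.0 and limma 3.58.1 (R 4.3.3) served as alternatives, with leaving out libraries, other scalings, filters and cell sets. The code was tested on simulated data. Shares have exact binomial intervals, and intervals cover counting error only.

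The 9 genes, the other gene lists and the motifs were chosen with earlier results of these data known. Named genes were all 9, from each other list those past the threshold and up to 4 with the smallest p, and for likeness the 8 highest correlations. Some genes of the lists are not reported here.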

Additional observations from a re-analysis of the deposited data

How the results depend on the processing

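In endothelial-like cells the count of 5 genes that rose stayed at 5 when any 1 library was left out and with the replicate block. It was 4 with DESeq2 and in cells low in other markers, both without Dhcr7, and 3 with limma at equal weight to the zones (Hsd17b7 0.158 and Dhcr7 0.136, adjusted p). Where a library was left out, the lone library of that diet was assumed to vary like those of the other diet. In arterial-like cells the count of 2 ran from 2 to 4 when libraries were left out, with Sc5d (adjusted p = 0.0355) and Dhcr7 (0.0118) added without PLX5622 library 1. It was 4 with the replicate block (Sc5d 0.0140, Dhcr7 0.0166) and 0 with DESeq2. In capillary-like cells the count of 4 was 2 with DESeq2. It also changed when libraries were left out, through the lost calls of Hsd17b7 and the gained call of Dhcr7 given above. In venous-like cells the count of 3 was 2 without PLX5622 library 1 or control library 1, with DESeq2 and with library totals, each time without Sc5d. The count of genes lower in arterial-like than capillary-like cells ran from 0 to 1, and the median share ratio of 1.42 was 1.45 after thinning. The median likeness of 0.894 was 0.435 within PLX5622 sums and 0.287 within control sums.

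Directions that turned were all of log2 changes that had not passed. Tm7sf2 in capillary-like cells was -0.064 with DESeq2 and ran from -0.62 to 0.58 over left-out libraries. Over left-out libraries Ebp ran from -0.12 to 0.41 and Lss from -0.15 to 0.33 in capillary-like cells, Lss from -0.34 to 0.14 in venous-like cells, and Ebp from -0.26 to 1.09 in smooth muscle-like cells. The arterial-like minus capillary-like level of Hsd17b7 ran from -0.0067 to 0.51, the venous-like minus capillary-like level of Nsdhl from -0.053 to 0.29, and that difference in diet change of Msmo1 from -0.42 to 0.72. The cause of these changes was not tested. Among all genes in endothelial-like cells, 136 were called, and 319 with the replicate block; same-numbered libraries had deviations correlated at 0.062, so the numbers were not shown to pair them. The median log2 change of all genes was 0.0055 with TMM, -0.035 with library totals and 0.0017 with DESeq2 size factors. Low UMI counts limit Lss and Tm7sf2 in arterial-like and venous-like cells and most of the 9 genes in mural cells.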
